A study of Drosophila melanogaster with 24 samples.

Results

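The storage protein genes of the larval fat body are described here in animals with altered doses of su(Hw), the gene of the zinc finger insulator protein Suppressor of Hairy-wing. The group was taken by gene symbol and holds 6 genes, namely Lsp1alpha, Lsp1beta, Lsp1gamma, Lsp2, Fbp1 and Fbp2. Of these 5 had a named probe, 1 each, among 11734 genes with a named probe and 14444 probes analysed. Lsp1gamma was not analysed here. Lsp2, Fbp1 and Fbp2 were named by the platform annotation, and Lsp1alpha and Lsp1beta only from the study's tables. Those tables list genes that changed against wild type on these arrays, or genes of the Adh region of 2L. Lsp1alpha, on chromosome X, thus entered through a list of changed genes, and Lsp1beta, on 2L, may have. An unchanged gene elsewhere could not gain a name this way. By the gene table used, Lsp1alpha lies on chromosome X, Lsp1beta and Fbp2 on 2L, and Lsp2 and Fbp1 on 3L, so none of the 5 measured genes lies on 3R, the arm that carries su(Hw).

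The fat body is the insect counterpart of liver and adipose tissue. In the last larval instar it secretes hexamerins, large proteins of the hemocyanin superfamily that have lost oxygen binding and circulate in the haemolymph as a store of amino acids. Lsp1alpha, Lsp1beta and Lsp1gamma encode the subunits of larval serum protein 1, and Lsp2 encodes larval serum protein 2. At the end of larval life a rise of the steroid hormone ecdysone makes the fat body take these proteins back up into storage granules, with Fbp1, a relative of the hexamerins, acting as their receptor. Fbp2 encodes a fat body protein related to alcohol dehydrogenase. Wing imaginal discs, the epithelia that form the adult wings, are not a known source of these proteins.

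Each array set RNA of 1 genotype against pooled RNA of wild-type animals. There were 3 genotypes with 4 arrays each in whole larvae and again in wing discs, 24 arrays in all. In the null, su(Hw)/Df, a chromosome with the transposon written cas X/K and the allele su(Hw)v lay over the deletion Df(3R)ED5644. The heterozygotes su(Hw)/+ and Df/+ carried 1 of these chromosomes over one from Oregon R, the wild-type strain to which both stocks had been crossed. The labels also write the marker w for su(Hw)/Df and su(Hw)/+. The deletion removes other genes besides su(Hw), so su(Hw)/Df and Df/+ share a lower dose of them. Animals with 2 copies of the su(Hw)v chromosome survive poorly, by the study's methods. All animals were selected as non-Tubby soft white pre-pupae. A larval sample held 10 or 20 larvae and a disc sample 6 wing discs. The larval pool combined 18 collections and the disc pool 20 extractions, and every array of a tissue used the same pool. The spread between wild-type samples is therefore left out of each comparison with a pool, and these comparisons share it. The p-values cover the spread between the arrays of a genotype, which the methods call independent biological replicates.

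The arrays held values for 9110 to 11673 of the 14444 probes in larvae and for 4972 to 11157 in discs. On 3 disc arrays (replicate 4 of Df/+ and replicate 2 of both other genotypes) fewer than 50% of the probes had a value. The su(Hw) transcript itself was lower in su(Hw)/Df than in the pool, with a log2 ratio of -2.92 ± 0.18 in larvae (SE, limma adjusted p = 3.78e-07) and of -2.28 ± 0.23 in discs (adjusted p = 9.26e-05), as the genotype label would have it. Wing disc markers had 95.8% of their possible values on the disc arrays, against 58.2% for all probes, and 10 of the 14 with a probe were read on all 12 arrays. The 5 storage probes had 98.3% of their possible values in larvae and 90.0% in discs.

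In whole larvae all 5 measured storage transcripts were higher than in the wild-type pool in the null and in su(Hw)/+, while in Df/+ Lsp2 alone passed the test. Lsp1alpha was named only through a list of genes changed on these arrays, and Lsp1beta may have been. Their rises are thus no independent result, and the count of 5 and its median may stand too high beside all probes. Lsp2, Fbp1 and Fbp2, named by the platform annotation, were called in the null and su(Hw)/+ as well. The mean rise in su(Hw)/Df ran from 1.46-fold for Fbp1 to 2.87-fold for Lsp1alpha. In su(Hw)/+ it ran from 1.38-fold for Lsp2 to 3.90-fold for Lsp1alpha. Many other genes differed from the larval pool as well. In su(Hw)/Df 14.5% of 9554 probes were called higher by limma at an adjusted p under 0.05 and 13.2% lower, in su(Hw)/+ 14.6% of 8907 were called higher, and in Df/+ 9.38% of 9699. The median log2 ratio of the 5 genes was 1.17 for the null, 0.69 for su(Hw)/+ and 0.24 for Df/+, against 0.03, 0.08 and -0.02 over all probes tested. In RNA of whole animals a change in the amount of fat body and a change in transcript per cell cannot be told apart.

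**Figure D1:**
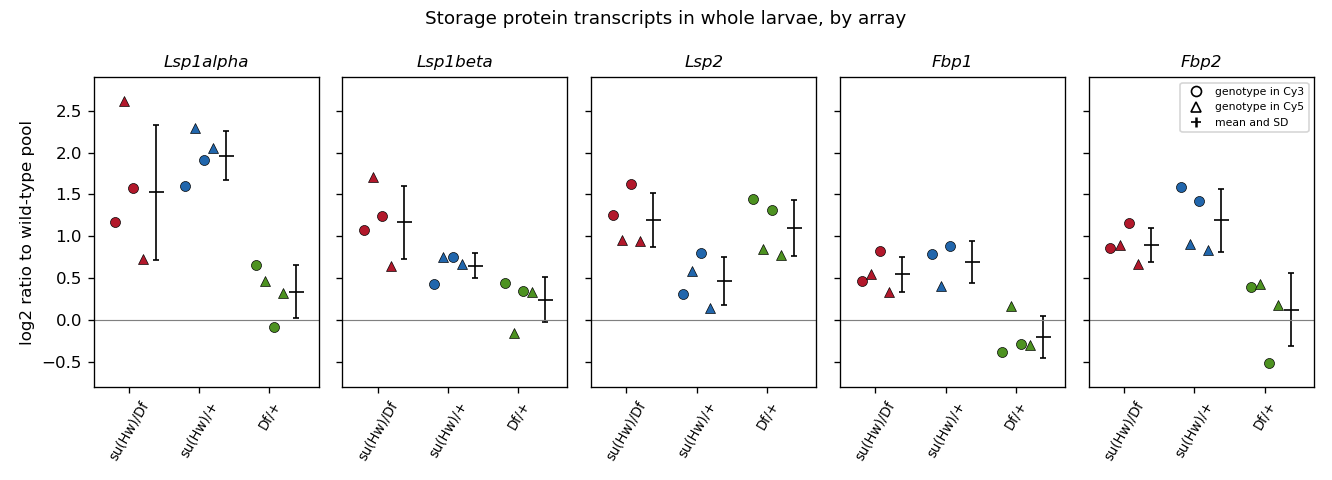
Log2 ratio to the wild-type larval pool on each of the 12 larval arrays for the 5 measured storage genes. Circles are arrays with the genotype in Cy3, triangles those with it in Cy5, and bars give the mean and SD of a genotype. Lsp1alpha, Lsp1beta, Fbp1 and Fbp2 lay lowest in Df/+, whereas Lsp2 lay lowest in su(Hw)/+.

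Lsp1alpha, a subunit gene of larval serum protein 1, had log2 ratios of 1.18, 2.62, 1.58 and 0.72 on the 4 su(Hw)/Df larval arrays. On the su(Hw)/+ arrays the ratios were 1.60, 2.29, 1.92 and 2.05. On the Df/+ arrays they were 0.65, 0.46, -0.09 and 0.32. All 8 arrays with the su(Hw)v chromosome were above every Df/+ array, and the null arrays spread widely around those of su(Hw)/+. The mean was 1.52 ± 0.81 (SD, n = 4) in the null (limma adjusted p = 0.000513), 1.96 ± 0.29 in su(Hw)/+ (adjusted p = 0.000133) and 0.34 ± 0.31 in Df/+ (adjusted p = 0.339).

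Lsp1beta encodes another subunit of the same protein. Its ratios were 1.07, 1.70, 1.24 and 0.65 on the null arrays and 0.43, 0.75, 0.75 and 0.66 in su(Hw)/+. In Df/+ they were 0.44, -0.15, 0.35 and 0.33. The null was higher than Df/+ on every array and overlapped su(Hw)/+ on 1. The means were 1.17 ± 0.44 (SD, n = 4; limma adjusted p = 0.000168), 0.65 ± 0.15 (adjusted p = 0.00817) and 0.24 ± 0.27 (adjusted p = 0.297). The su(Hw)/+ call was lost with the genotype in Cy5 only (0.71, adjusted p = 0.125). The highest mean was that of su(Hw)/+ for Lsp1alpha and that of su(Hw)/Df for Lsp1beta. The values of these 2 genotypes overlapped for both genes, and su(Hw)/Df was not tested against su(Hw)/+ alone. With the settings used throughout neither gene passed in the direct comparisons given below.

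Lsp2 was the only member above the pool on all 12 larval arrays, as were 10.4% of the 6423 probes read on all of them. Its ratios were 1.25, 0.96, 1.63 and 0.94 on the null arrays, 0.31, 0.58, 0.80 and 0.15 in su(Hw)/+, and 1.44, 0.85, 1.32 and 0.78 in Df/+. The null and Df/+ covered much the same range, and the su(Hw)/+ arrays lay below all null arrays, a gap that 4.04% of 8431 probes showed. The means were 1.20 ± 0.32 (SD, n = 4; limma adjusted p = 0.000151), 0.46 ± 0.29 (adjusted p = 0.0437) and 1.10 ± 0.33 (adjusted p = 0.000871). The su(Hw)/+ call is near the threshold. It was lost when the arrays were centred on their medians (adjusted p = 0.0573), with 2 values per genotype (0.0551), with su(Hw)/+ alone in the fit (0.0624), with the genotype in Cy5 only (0.210) and when any of 5 single arrays was left out, with an adjusted p of 0.169 without su(Hw)/+ replicate 3 as the highest.

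Fbp1, the storage protein receptor, had smaller ratios. They were 0.46, 0.55, 0.82 and 0.34 on the null arrays and 0.79, 0.41 and 0.88 on the 3 su(Hw)/+ arrays with a value. In Df/+ they were -0.39, 0.16, -0.29 and -0.30. Every array with the su(Hw)v chromosome was above every Df/+ array. The means were 0.54 ± 0.21 (SD, n = 4; limma adjusted p = 0.011), 0.69 ± 0.25 (n = 3, adjusted p = 0.00584) and -0.20 ± 0.25 (n = 4, adjusted p = 0.313).

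Fbp2, the dehydrogenase-related fat body gene, had ratios of 0.86, 0.89, 1.16 and 0.67 on the null arrays. They were 1.59, 0.91, 1.42 and 0.84 in su(Hw)/+ and 0.39, 0.43, -0.52 and 0.18 in Df/+. Again the Df/+ arrays lay below all others. The means were 0.89 ± 0.20 (SD, n = 4; limma adjusted p = 0.00235), 1.19 ± 0.37 (adjusted p = 0.000344) and 0.12 ± 0.44 (adjusted p = 0.664).

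Thus 4 of the 5 genes had su(Hw)/Df values above all Df/+ values without overlap, as had 5.89% of 8887 probes, and 3 of 5 had su(Hw)/+ values above all Df/+ values, as had 4.93% of 8464. Lsp2 overlapped in both, and Lsp1beta in the second. Both counts include Lsp1alpha, and the first also Lsp1beta. These were named from the study's tables, so the counts may stand too high beside all probes. The genotypes were next compared directly, which takes the shared pool out. Set against the heterozygotes' mean, the null gave 0 of 5 calls, where 2.84% of 8197 probes were called. The largest difference was that of Lsp1beta, 0.72 on the log2 scale (95% interval 0.31 to 1.13, limma adjusted p = 0.060). The intervals of the other 4 genes had lower bounds of -0.24 to 0.01 and upper bounds of 0.66 to 0.99, so differences of more than 0.6 remain within each of them. Lsp1beta was called when dye was added as a term (adjusted p = 0.0459), when 4 values per genotype were asked for (0.0439) and without su(Hw)/Df replicate 4 (0.0196).

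Between the heterozygotes 0 of 5 genes were called, where 0.272% of 8464 probes were (23, and 36 with a replicate block). Lsp1alpha was higher in su(Hw)/+ than in Df/+ by 1.63 (95% interval 0.92 to 2.34, limma adjusted p = 0.0576), Fbp2 by 1.07 (0.55 to 1.58, adjusted p = 0.102) and Fbp1 by 0.90 (0.46 to 1.33, adjusted p = 0.115). Lsp2 differed the other way, by -0.64 (-1.11 to -0.16, adjusted p = 0.305). The call for Lsp1alpha depended on the fit, since it was made with a replicate block (adjusted p = 0.0383), with a dye term (0.0399), with 4 values per genotype (0.0426) or with the 2 heterozygotes alone (0.0196), and also without su(Hw)/Df replicate 2 (0.013) or replicate 4 (0.0385). Over all 3 genotypes together, the 5 genes were above the larval pool, where 29.5% of 8197 probes were called higher. This count too includes Lsp1alpha and Lsp1beta, named from the study's tables.

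**Figure D2:**
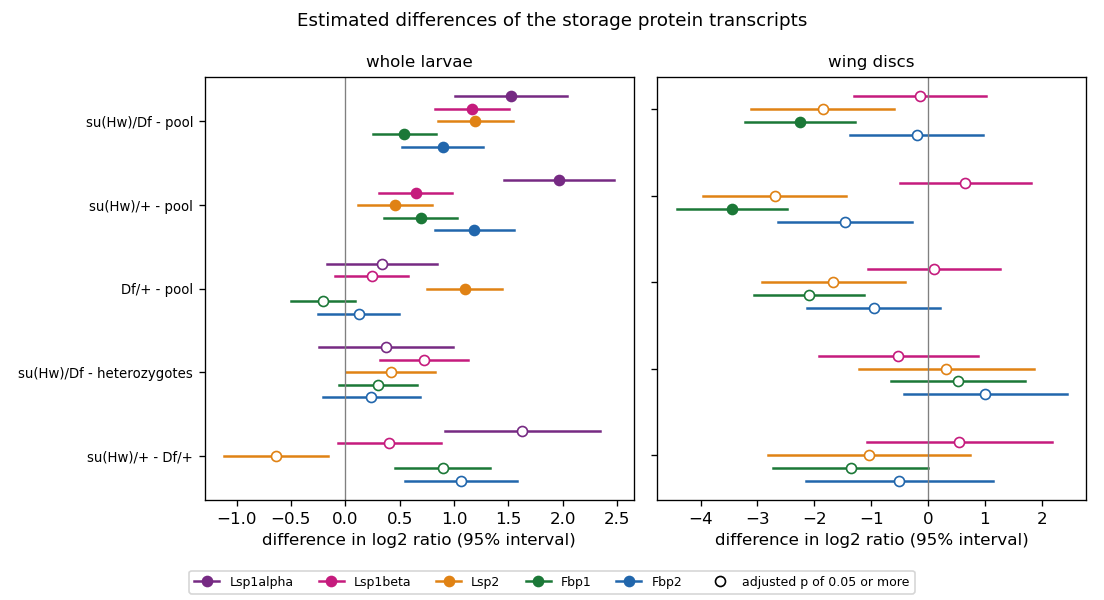
Estimated log2 differences of the storage genes in whole larvae (left) and wing discs (right), each point with its 95% interval from limma, and filled where the adjusted p was under 0.05. In larvae all 5 genes were called against the pool in the null and in su(Hw)/+, and Lsp2 alone in Df/+. In discs only Fbp1 was called, in the null and in su(Hw)/+ but not in Df/+. No comparison between genotypes was called in either tissue. The 2 panels have different scales.

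Other genes of larval fat body were read from lists, whose counts of calls stand against the 14.5% of all probes that were higher and the 13.2% that were lower in su(Hw)/Df larvae. Of 7 fat body enzymes tested in su(Hw)/Df larvae, 6 were higher than in the pool and 0 lower, with a median log2 ratio of 0.96. They included alcohol dehydrogenase Adh (1.44, limma adjusted p = 4.45e-05), Tps1, which makes the blood sugar trehalose (1.43, adjusted p = 0.00241), and the malic enzyme gene Men (1.42, adjusted p = 0.00014). Against the heterozygotes 2 of 6 enzymes tested were higher and 0 lower, where 1.09% of 8197 probes were called higher. They were Adh (0.79, limma adjusted p = 0.0461) and Men (0.91, adjusted p = 0.0484). Both calls are near the threshold, and alternative fits were not examined for these enzymes. Tps1 was not called there (0.89, adjusted p = 0.194), and neither was any storage gene, Lsp1beta being the nearest (adjusted p = 0.060). The lipid carrier and lipid store genes were mixed, with 4 of 12 higher and 2 lower and a median of 0.30, the lower ones being a share near that of all probes. Tsf1, an iron carrier of the haemolymph, was higher (1.04, adjusted p = 0.000216), while mdy, which makes triglyceride, was lower (-0.78, adjusted p = 0.000694) and so was Lpin, a phosphatidate phosphatase (-0.71, adjusted p = 0.00216). Tsf1 was also higher in su(Hw)/+ (1.13, adjusted p = 0.000175) but not called in Df/+ (0.29). In both heterozygotes mdy was lower (-0.48 and -0.41, adjusted p = 0.0131 and 0.0387). Against the heterozygotes 1 of these 12 genes was called lower and 0 higher, where 1.76% of 8197 probes were lower. This was Lpin (-0.95, limma adjusted p = 0.0058).

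Relatives of the hexamerins with enzyme activity, the prophenoloxidases of crystal cells, were higher too. PPO1 had a log2 ratio of 2.33 in su(Hw)/Df (limma adjusted p = 0.000225) and 1.15 in su(Hw)/+ (adjusted p = 0.0116), and PPO2 one of 2.42 (adjusted p = 0.002) and 2.15 (adjusted p = 0.00349). Neither could be tested in Df/+ for want of values. Of 14 regulators tested, among them the ecdysone receptor partners and early ecdysone genes, 2 were higher in su(Hw)/Df and 0 lower, with a median of 0.03. That count is near the 14.5% of all probes called higher and is no result about the regulators. The 2 were Eip78C, an ecdysone-induced nuclear receptor (0.97, adjusted p = 5.14e-05), and usp, the partner of the ecdysone receptor (0.47, adjusted p = 0.0296). Eip78C was also higher in su(Hw)/+ (1.08, adjusted p = 4.5e-05) and in Df/+ (0.44, adjusted p = 0.0166), and usp in Df/+ (0.49, adjusted p = 0.0319). Of 18 autophagy and lysosome genes, whose products break down fat body stores, 5 were higher and 3 lower, the latter again near the 13.2% of all probes. They were led by dor (0.85, adjusted p = 0.0227) and Atg8a (-0.86, adjusted p = 0.0181). Atg8a was also lower in su(Hw)/+ (-0.73, adjusted p = 0.036) and in Df/+ (-0.84, adjusted p = 0.0258), and dor was called in neither. Against the heterozygotes 0 of 13 regulators and 0 of 18 autophagy and lysosome genes were called, where 2.84% of 8197 probes were. In lists this small that is no result about these genes.

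Some markers of other tissues were also called in the same larvae. Against the pool, where 14.5% of all probes were higher and 13.2% lower, su(Hw)/Df had 3 of 7 muscle markers higher and 0 lower, 3 of 7 haemocyte markers higher and 1 lower, 2 of 4 salivary gland markers lower and 0 higher, and 1 of 6 midgut markers higher and 5 lower. The median of the midgut markers on single larval arrays ran from -1.70 to 0.02, and that of the salivary gland markers from -3.20 to -0.08. Their part in the ratios of the storage genes was not tested.

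For likeness of level and pattern, the 12 larval log2 ratios of each member read on every array were set beside those of 5662 probes. The measure was the root mean square difference, which also counts a difference in mean level. Nearest to Lsp1beta was Gss1, a glutathione synthetase gene (0.18), nearest to Fbp2 was the odorant binding protein gene Obp99c (0.25), followed by Nup214 (0.28) and Tsf1 (0.30), and nearest to Lsp2 was Acox3, an acyl-CoA oxidase gene (0.27), followed by NimB4 (0.29). For Lsp1alpha the least distance was 0.59, to the phosphoglucomutase gene Pgm1. Lsp1alpha also had the widest spread between replicates of these genes in larvae, and the distances grow with that spread. Distances between storage genes ran from 0.55 between Lsp1beta and Fbp2 to 1.13 between Lsp1alpha and Lsp2. A nearest gene is the least of many distances, so it cannot be set against that of a fixed pair. Seen from Lsp1alpha, Fbp2 ranked 33 and Lsp1beta 61 among 5662 probes. Seen from Lsp2, Lsp1alpha ranked 3155. Fbp1, which lacked a value on 1 larval array, was left out. The 12 points share 1 pool.

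In wing discs 2 of the 4 storage genes tested were called below the pool and 0 above it. Over the 3 genotypes together Fbp1 was 6.05-fold and Lsp2 4.20-fold lower than in the wild-type disc pool, with log2 ratios of -2.60 ± 0.26 (SE, limma adjusted p = 2.22e-05) and -2.07 ± 0.34 (adjusted p = 0.00217). Only 2.54% of 5550 disc probes were called lower in that comparison and 0.775% higher. Fbp2 had a value of -0.87 (95% interval -1.54 to -0.20, adjusted p = 0.197), which passed without su(Hw)/+ replicate 2 alone (-1.13, adjusted p = 0.0293), and Lsp1beta one of 0.21 (-0.45 to 0.87, adjusted p = 0.863). With only the arrays that carried the genotype in Cy5, Lsp2 did not pass (-1.75, adjusted p = 0.0568). No comparison between genotypes was called for any storage gene.

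**Figure D3:**
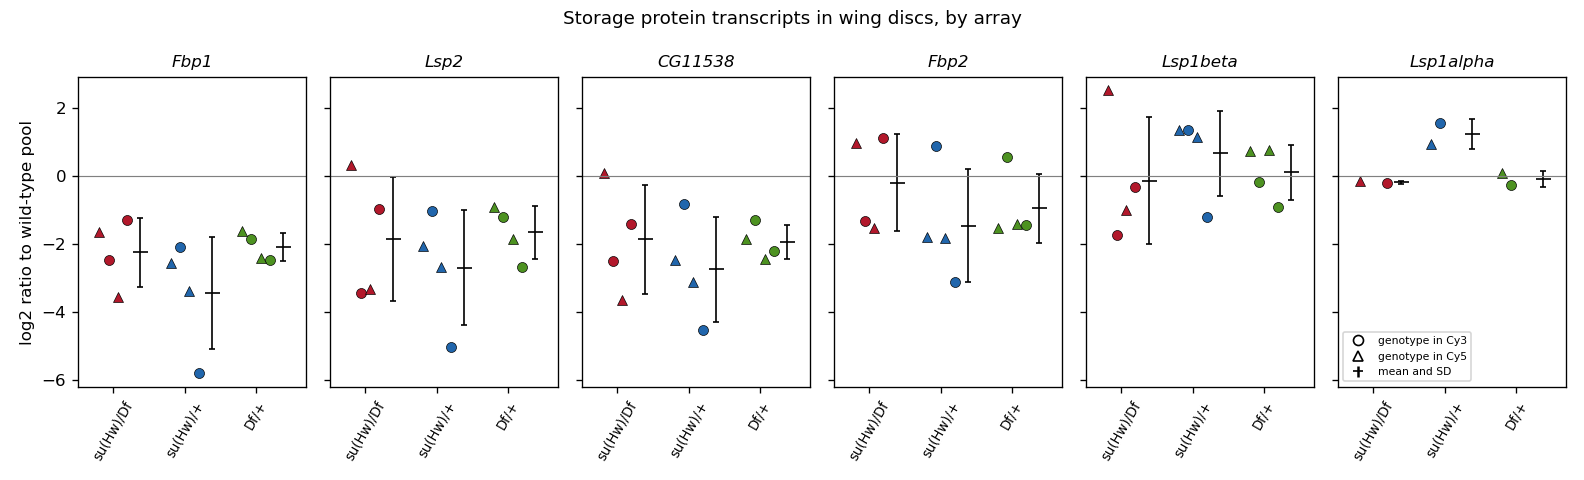
Log2 ratio to the wild-type disc pool on each disc array for the 5 measured storage genes and for the probe annotated CG11538, drawn as in the larval plot but on a wider scale. Fbp1 was below 0 on all 12 arrays, Lsp2 and CG11538 on 11, and Lsp1alpha had only 2 values per genotype.

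Fbp1 was the most regular of them. Its ratios were -1.65, -2.47, -3.57 and -1.30 on the null arrays, -2.55, -2.09, -3.38 and -5.79 in su(Hw)/+, and -1.63, -1.85, -2.41 and -2.48 in Df/+. It was below the pool on 12 of 12 arrays, as were 0.868% of the 3340 probes read on every disc array, and within the lowest 1% of values on each, as were 0.15% of them. On su(Hw)/+ replicate 4 it had the lowest value of all 9427 read. By genotype the means were -2.25 ± 1.01 (SD, n = 4; limma adjusted p = 0.0233), -3.45 ± 1.64 (adjusted p = 0.00107) and -2.09 ± 0.42 (adjusted p = 0.0878), where 0.526% of 7218, 0.503% of 6559 and 0.136% of 7347 probes were called lower. Leaving out su(Hw)/Df replicate 2 or 3 removed the null call (adjusted p = 0.116 and 0.100), and leaving out su(Hw)/+ replicate 4 brought Df/+ past the threshold (0.00772), so which genotypes were called rests on single arrays. With the genotype in Cy3 only, 2 arrays per genotype, neither the null (adjusted p = 0.460) nor su(Hw)/+ (0.194) passed.

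Lsp2 had disc ratios of 0.31, -3.44, -3.32 and -0.97 on the null arrays, -2.05, -1.04, -2.67 and -5.02 in su(Hw)/+, and -0.93, -1.20, -1.86 and -2.66 in Df/+. The null arrays alone spanned a range from just above the pool to among the 3 lowest values of an array. The means were -1.86 ± 1.84 (SD, n = 4; limma adjusted p = 0.304), -2.70 ± 1.69 (adjusted p = 0.0605) and -1.66 ± 0.77 (adjusted p = 0.616). In su(Hw)/+ Lsp2 passed in 4 of the alternative fits and without any of 3 single arrays, with adjusted p-values from 0.025 to 0.0434.

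Fbp2 had disc ratios of 0.96, -1.34, -1.52 and 1.11 on the null arrays, -1.79, 0.87, -1.82 and -3.11 in su(Hw)/+, and -1.53, 0.55, -1.41 and -1.43 in Df/+. It lay between 0.55 and 1.11 on 4 arrays and between -3.11 and -1.34 on the other 8, and every genotype had arrays of both kinds. The means were -0.20 ± 1.43 (SD, n = 4; limma adjusted p = 0.963), -1.46 ± 1.67 (adjusted p = 0.651) and -0.96 ± 1.00 (adjusted p = 0.871).

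Lsp1beta had disc ratios of 2.52, -1.73, -1.01 and -0.33 on the null arrays, 1.34, 1.34, 1.15 and -1.21 in su(Hw)/+, and 0.75, -0.19, 0.76 and -0.90 in Df/+. It was above the pool on 6 arrays and below it on 6, and no genotype kept 1 direction. The adjusted p against the pool was 0.977 for the null, 0.989 for su(Hw)/+ and 0.977 for Df/+ (limma). Lsp1alpha had 2 values per genotype, too few for the test: -0.15 and -0.22 on the null arrays, 0.92 and 1.54 in su(Hw)/+, and 0.08 and -0.27 in Df/+.

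**Figure D4:**
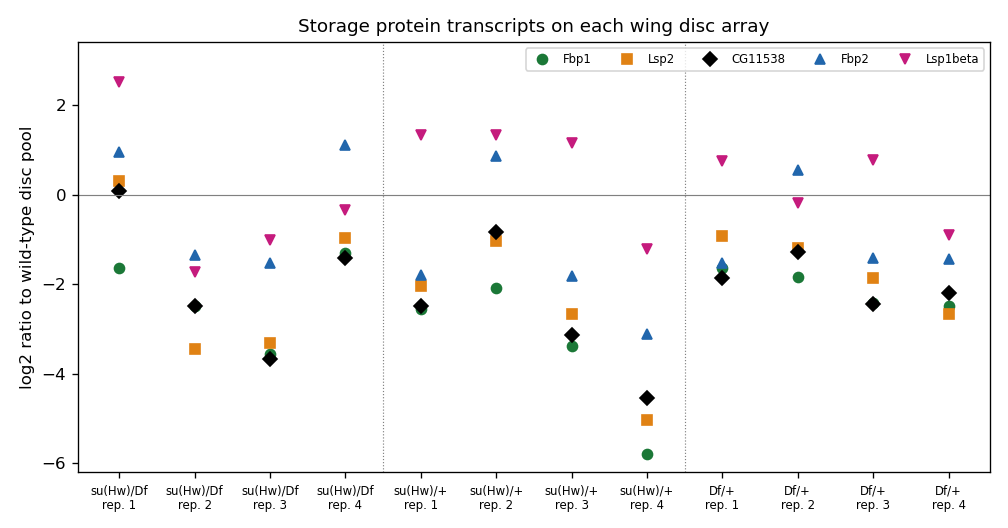
Log2 ratio to the wild-type disc pool of Fbp1, Lsp2, CG11538, Fbp2 and Lsp1beta on each of the 12 disc arrays, set out by genotype and replicate number, which has no order. On su(Hw)/+ replicate 4 the 4 storage genes had their lowest or, for Lsp1beta, second lowest value, and Lsp2 and CG11538 lay within 1 of each other on every array.

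The spread between replicates was itself a feature of these genes in discs. The SD between arrays of 1 genotype, pooled over genotypes, was 1.51 for Lsp2, 1.40 for Fbp2, 1.37 for Lsp1beta and 1.14 for Fbp1 on the log2 scale, against a median of 0.37 over 5550 disc probes. Only 6 probes were at or above Lsp2, 12 at or above Fbp2, 14 at or above Lsp1beta and 40 at or above Fbp1, each count including the gene itself. In larvae the same 4 genes had an SD of 0.23 for Fbp1 to 0.35 for Fbp2 against a median of 0.33, at the 22.3 to 55.4 percentile of 8197 probes, and Lsp1alpha one of 0.53, at the 87.6 percentile. The probes around them in the disc order were of mixed kinds. They included Hsp68, Hsp70Bbb, Hsp70Ab and Hsp70Ba, genes of heat shock chaperones. Among the others were stv, CG31272, mRpS9, Cpr57A, CG14313, RpS29 and probes of U5 snRNA.

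**Figure D5:**
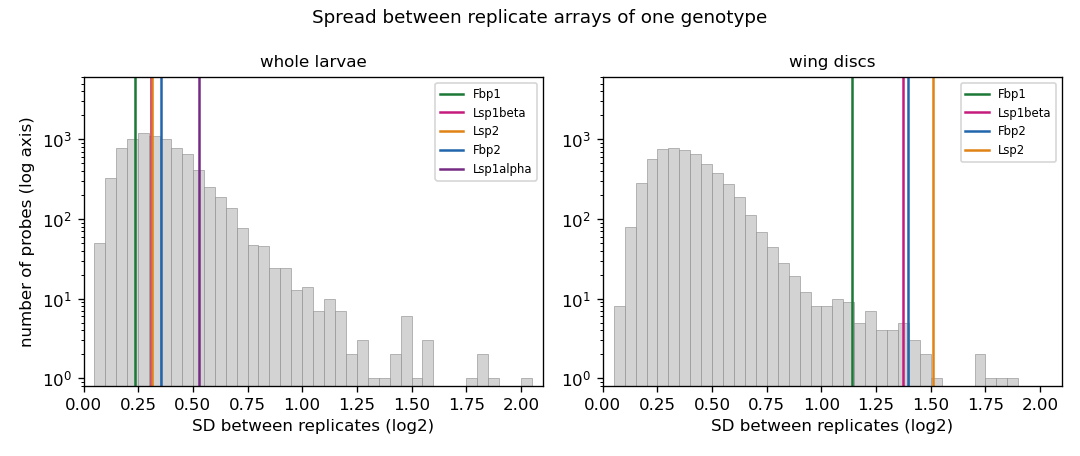
Number of probes (log axis) by the SD of their log2 ratios between replicate arrays of a genotype, pooled over the 3 genotypes, in whole larvae and wing discs, with the storage genes as coloured lines. In larvae the lines lie between the 22.3 and 87.6 percentile of 8197 probes, and in discs they fall in the tail of 5550, from 1.14 to 1.51.

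Comparisons between genotypes in discs had wide intervals. The null differed from the heterozygotes' mean by 0.53 for Fbp1 (95% interval -0.65 to 1.70), 0.32 for Lsp2 (-1.21 to 1.86), 1.01 for Fbp2 (-0.42 to 2.44) and -0.52 for Lsp1beta (-1.92 to 0.89), and 0 of 4 were called by limma, where 0.0901% of 5550 probes were. Between su(Hw)/+ and Df/+, 0 of 4 were called with or without a replicate block, where 0.0169% of 5928 probes were (1, and 5 with the block). The largest of these differences was that of Fbp1, with -1.36 (95% interval -2.72 to 0.0007, adjusted p = 0.999), where the larval value was 0.90. The change from heterozygotes to null was also compared between tissues, and 0 of 4 genes were called, as was 0% of 5105 probes, of which 225 had an unadjusted p under 0.05. Lsp1beta had the largest value, -1.24 (-2.76 to 0.28).

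The probe nearest to Lsp2 over the 12 disc arrays, with a root mean square difference of 0.53 among 2807 probes, was annotated CG11538. In the gene table this name is an older synonym of 2 genes, Lsp2 itself and an antisense RNA that overlaps it, so which strand or gene the probe reads is not settled. It was singled out after its values were seen. Its disc ratios were 0.08, -2.49, -3.66 and -1.40 on the null arrays, -2.48, -0.83, -3.13 and -4.54 in su(Hw)/+, and -1.86, -1.29, -2.44 and -2.20 in Df/+. They followed Lsp2 array by array, with differences of -0.93 to 0.95. In larvae, where Lsp2 was read on 12 of 12 arrays, CG11538 was read on only 4, with ratios between -0.74 and 0.60. The labels state that larval RNA was labelled during first-strand cDNA synthesis and disc RNA after synthesis of double-stranded cDNA. Whether this bears on the difference in detection was not tested.

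Fbp1 and Lsp2 lay near each other in discs too, at 0.85. Nearest to Fbp1 was CG2233 (0.70), with ratios between -4.21 and -1.45. It was below the pool on every disc array, which is no separate result because it was chosen for likeness to Fbp1. Nearest to Fbp2 was ple, the tyrosine hydroxylase gene (0.95), and nearest to Lsp1beta the dosage compensation RNA lncRNA:roX2 (0.71). The distances in discs cannot be set against those in larvae, because they grow with the spread between arrays, which was wider for these genes in discs. Lsp1beta lay at 1.78 to 3.09 from the other storage genes, and Fbp1 and Fbp2 lay 1.93 apart. These distances also count differences in mean level, and Lsp1beta had the highest mean. Whether Lsp1beta rose and fell with the others over the arrays was not tested.

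Few other genes of fat body could be tested in discs. Over all genotypes 2.54% of 5550 disc probes were called lower than the pool and 0.775% higher. Of the 7 lipid carrier and lipid store genes tested there, from a list of 16, 1 was lower and 0 higher, with a median of 0.09. This was apolpp, which encodes the main lipid carrier of the haemolymph, at -0.81 (limma adjusted p = 0.00116), named after its values were seen and below the pool on every disc array, from -1.68 to -0.15. The array medians of the 6 list genes read on all disc arrays ran from -0.60 to 0.48, while those of the 4 storage genes ran from -4.06 to 0.63. Only 2 of 12 listed fat body enzymes could be tested, with 0 calls. Among markers of other tissues 0 of 3 haemocyte, 0 of 1 muscle, 0 of 1 midgut, 0 of 2 neuron and 0 of 14 wing disc genes were called. With 3.32% of 5550 probes called in either direction, 0 calls in lists this small are no result about these enzymes or markers. How much fat body tissue the dissected discs and the disc pool held was not measured, and its part in these ratios was not tested. Because every disc array shares 1 pool, a low level in the 3 genotypes and a high level in the pool cannot be told apart.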

How the data were processed

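Transcript levels were measured on 24 two-colour long oligonucleotide arrays, 12 of whole larvae and 12 of wing discs, with 4 per genotype and the dyes swapped on 2 of each 4. The authors deposited log2 ratios of genotype over wild-type pool, 1 per spot, after normalization with VSN of the 12 slides of each tissue together. VSN shrinks the ratios of dim spots, so that their folds (2 to the power of the log2 ratio) are understated. The sources used here give no VSN version. The number of arrays limits the precision, since intensities behind the ratios were not used here. For disc RNA the labels and the paper's methods differ in the number of discs and in the labelling; the labels are followed. The direction and base of the ratios were checked by setting 2772 genotype means beside the study's tables (2772 within 0.01). Of 15158 probes, 714 with 3 or 4 spots were treated as controls and dropped. Of the 14444 analysed, 12657 had 1 gene symbol, 126 of them, among them Lsp1alpha and Lsp1beta, named from the study's tables. Those tables hold genes changed against wild type on these arrays, and genes of the Adh region. Names and chromosomes were taken from a table of the Release 6 assembly, and 0 value columns were unused.

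The log2 ratios were fitted in limma 3.58.1 (R 4.3.3) separately for each tissue, with a mean for each of the 3 genotypes. A probe needed 3 or more values per genotype compared. P-values had Benjamini-Hochberg adjustment over all probes tested with a threshold of 0.05. Replicate numbers were checked as pairs by the correlation of deviations from the genotype means. Arrays of su(Hw)/+ and Df/+ with 1 number deviated together (r from 0.12 to 0.31 in larvae over 6423 probes and from 0.17 to 0.61 in discs over 3340). Arrays of su(Hw)/Df with either heterozygote did not throughout (r from -0.03 to 0.54 and from -0.12 to 0.63). The labels do not state a pairing. Within a tissue the number also fixes the dye, so pairing and a shared dye cannot be told apart here. A replicate block takes up dye as well. The script was tested on simulated data. Tables were made in Python 3.11.15 with pandas 2.3.3 and numpy 2.4.6. All members were named, from each list at most 3 called genes in each direction, those with the greatest change in su(Hw)/Df, and up to 3 nearest genes of each member. The members and lists were chosen with earlier results of these data known.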

Additional observations from a re-analysis of the deposited data

Results flagged for a closer look

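Among 26 groups of 4 arrays, 2 held an array far from the other 3 by Dixon's test, where chance gives about 1 group in 20. Fbp2 in Df/+ discs had a log2 ratio of 0.55 on replicate 2 against values near -1.4 to -1.5 on the others. Lsp1beta in su(Hw)/+ discs had -1.21 on replicate 4, where the other 3 were above the pool.

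For 2 genes every larval array of a genotype was above its pool and every disc array below its own. For Lsp2 the disc mean minus the larval mean was -3.16 in su(Hw)/+ and -2.76 in Df/+. For Fbp1 it was -2.79 in the null and -4.15 in su(Hw)/+. The difference was not tested, because the tissues were normalized apart and set against different pools.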

How the results depend on the processing

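The rise of all 5 storage genes in su(Hw)/Df larvae was called without any single array, and that of Fbp1 was lost with the genotype in Cy5 only (adjusted p = 0.188) or with su(Hw)/Df alone in the fit (0.0551). In larvae su(Hw)/+ against the pool gave 2 calls in Cy5 only and 3 to 5 without single arrays. Fbp1 could not be tested there without 1 of its 3 arrays. The null against the heterozygotes gave 1 call with a dye term and with 4 values per genotype, and 0 to 1 without single arrays; su(Hw)/+ against Df/+ gave 1 with these, with a replicate block and with the compared genotypes only, and 0 to 1 without single arrays. In discs the null against the pool gave 0 in Cy3 only, with trend and robust moderation and without the 3 sparse arrays, and 0 to 1 without single arrays. There su(Hw)/+ against the pool gave 2 with a replicate block, with 4 values, with su(Hw)/+ alone and without the sparse arrays, 0 in Cy3 only and in Cy5 only, and 1 to 2 without single arrays. Df/+ against the pool gave 1 with a replicate block, 2 with Df/+ alone in the fit, and 0 to 1 without single arrays. All genotypes against the disc pool gave 1 in Cy5 only.

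With the replicate block Lsp1alpha passed between the larval heterozygotes (adjusted p = 0.0383), Lsp2 in su(Hw)/+ discs (0.029) and Fbp1 in Df/+ discs (0.0312), and no other call changed.

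Uncalled values changed sign. In Cy3 only Fbp2 was at -0.0623 in Df/+ larvae, and Lsp1beta at -0.54 in Df/+ discs and -0.50 over all disc genotypes. In Cy5 only Lsp1beta was at 0.76 in su(Hw)/Df discs, Fbp1 at -0.11 against the disc heterozygotes and Lsp2 at 0.01 in discs minus larvae. Without the sparse arrays Lsp1beta was at 0.39 and Fbp2 at 0.18 in su(Hw)/Df discs, Lsp1beta at -0.012 between the disc heterozygotes and Lsp2 at 0.55 in discs minus larvae. Without single disc arrays Lsp1beta ranged from -1.02 to 0.39 in su(Hw)/Df, -0.11 to 0.44 in Df/+, -0.0869 to 0.42 over all genotypes and -1.41 to 0.0119 against the heterozygotes, Fbp2 from -0.63 to 0.24 in su(Hw)/Df and -1.28 to 0.0463 between the heterozygotes, and Lsp2 from -0.40 to 0.85 against the heterozygotes. In discs minus larvae Lsp2 ranged from -0.81 to 0.44 and Fbp1 from -0.16 to 0.67. The causes were not tested. Every analysed probe was a single spot, so the choice between mean and median of spots had no effect.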
